A study of Homo sapiens with 4 samples.

Results

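The endoplasmic reticulum (ER) is where secreted and membrane proteins enter the secretory route and are folded, and 41 genes of this machinery were followed in LCC9 cells treated with the compound A7. They were taken by symbol from a fixed list out of 23605 gene symbols, and all 41 were found in the tables. By role they were 11 chaperones and their cofactors, 4 disulfide isomerases, 7 genes of ER-associated degradation, 2 stress sensors, 9 genes of translocation, 3 signal peptidase genes and 5 glycosylation genes. LCC9 is a breast cancer line that grows despite tamoxifen and and, by its labels, expresses wild-type estrogen receptor alpha. RNA was sequenced after 24 h with DMSO vehicle (2 libraries) or with A7, which the labels describe as a mimetic of BRCA1 (2 libraries). All 4 cultures shared a medium free of phenol red whose serum (5%) had been stripped with charcoal and so is low in estrogen. The dose of A7 is not given in the sources used here, and the compound goes by its code name because sample titles and series title disagree on its catalogue number. The labels do not state whether libraries of the same group are separate cultures, and every p-value measures the spread between these libraries, which may be technical.

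A protein bound for secretion carries a signal peptide that the signal recognition particle binds as it leaves the ribosome. The chain then passes through the SEC61 channel, signal peptidase removes the signal, and the oligosaccharyltransferase attaches a glycan to asparagine. HSPA5 (BiP) and other chaperones fold the chain, disulfide isomerases form and rearrange its disulfide bonds, and chains that fail to fold are moved back to the cytosol for degradation. When unfolded chains build up, the sensors ATF6, ERN1 (IRE1) and EIF2AK3 (PERK) start the unfolded protein response, which raises the transcription of many chaperone and degradation genes. Luminal breast cells secrete proteins and express XBP1, a transcription factor of this response, at a high level.

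One feature that many of these genes share, and that their selection by name did not use, is the ER stress element in the promoter, the site through which ATF6 and XBP1 act. Its long form, ERSE, was searched as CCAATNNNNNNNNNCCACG and its short form, ERSE-II, as ATTGGNCCACG, on both strands and without mismatches, from 250 bases before to 50 bases after each annotated start. The forms are built from the same 5-base blocks in different arrangements. In RefSeq promoters of build GRCh38.p14, 36 of the 41 genes had an entry, and PDIA3, DERL1, DERL3, SPCS1 and RPN1 had none. An element was present in 9 of these 36 genes (25%), against 44 of all 27305 genes (0.161%). The element was defined in the field on promoters of ER chaperones, so this difference in share is background knowledge rather than a result on A7. The promoters of the 6 genes that are followed below with values in every library are shown 5′ to 3′ on the strand of the gene, with the fixed bases of the element in capitals.
HSPA5, chr9:125241376-125241424, minus strand: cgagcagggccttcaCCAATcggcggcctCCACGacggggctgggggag
HSP90B1, chr12:103930201-103930354, plus strand: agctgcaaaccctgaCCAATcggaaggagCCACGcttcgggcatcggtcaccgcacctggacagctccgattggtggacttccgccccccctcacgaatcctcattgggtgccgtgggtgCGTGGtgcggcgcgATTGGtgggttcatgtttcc
CANX, chr5:179698763-179698811, plus strand: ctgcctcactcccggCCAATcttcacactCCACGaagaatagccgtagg
CRELD2, chr22:49918539-49918587, plus strand: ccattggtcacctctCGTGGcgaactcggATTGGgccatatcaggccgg
PDIA6, chr2:10812838-10812886, minus strand: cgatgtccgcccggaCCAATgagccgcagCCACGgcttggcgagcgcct
SDF2L1, chr22:21642099-21642139, plus strand: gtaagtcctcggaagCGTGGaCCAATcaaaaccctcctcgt

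The element read in the direction of the gene in HSPA5, CANX and PDIA6 and on the opposite strand in CRELD2 and SDF2L1, and HSP90B1 held 1 copy in each direction. CALR held an ERSE, HERPUD1 an ERSE-II and HYOU1 2 copies of ERSE-II. In all, 11 distinct elements were found, 7 of the long and 4 of the short form. A match is a description of the sequence and does not show that a factor was bound.

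**Figure D1:**
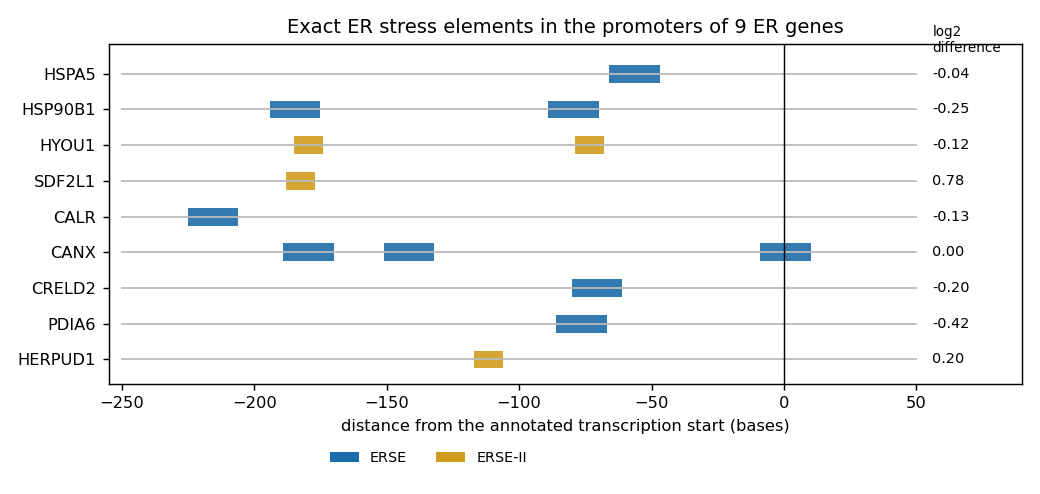
Position of exact ER stress elements in the promoters of 9 genes, in bases from the annotated start, with ERSE in blue and ERSE-II in yellow and the log2 difference (A7 minus vehicle) at the right. The 3 bars of CANX are the same element seen from 3 annotated starts, and the log2 differences of the 9 genes run from -0.42 for PDIA6 to 0.78 for SDF2L1.

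Levels are given as scaled FPKM, the authors' fragments per kilobase scaled to sequencing depth divided by a library factor between 0.9899 and 1.02. Steps in the low values place the libraries at roughly 2300000 and 2200000 fragments (vehicle 1 and 2) and 4200000 and 3200000 fragments (A7 1 and 2), so genes of low level rest on few fragments. Summed FPKM ran from 1189056 to 1473540 per library. All 10 luminal markers examined averaged at least 1 FPKM, and their summed level was 1416 and 1113 scaled FPKM with vehicle and 1210 and 949.5 with A7. KRT8, KRT18 and KRT19 had lower means with A7 with overlapping groups, as did EPCAM and AGR2 by less (log2 differences -0.0025 and -0.033). XBP1 was lower without overlap, whereas ESR1, GATA3, FOXA1 and CDH1 were higher without overlap. None of these 10 markers passed limma. Of 4 basal markers, KRT5 and KRT14 were listed at 0 in all 4 libraries, TP63 averaged 1.01 with vehicle and 0.867 with A7, and ACTA2 14.1 and 11.2. Of 5 leukocyte markers, 4 (PTPRC among them) were listed at 0 in every library, and ITGAM was above 0 only in A7 replicate 2 (0.0712). Of 3 endothelial markers none reached a mean of 1. Among these, PECAM1 stood at 0.0951 and 0.0961 with vehicle and 0 and 0.0670 with A7. Of 5 fibroblast markers none reached a mean of 1, with a sum of 0.416 and 0.421 with vehicle and 2.55 and 0.733 with A7. In bulk RNA, fewer cells of a type and less RNA per cell cannot be told apart.

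A7 was followed by no change of an ER gene that passed the test. Of the 41 genes, 38 reached a mean FPKM of 1 and were tested, and 0 of them passed limma at an adjusted p under 0.05 (smallest adjusted p = 0.806), where 2 of all 8952 tested genes passed (0.0223%). At an unadjusted limma p under 0.05 the cofactor gene SDF2L1 was higher, against 2.21% of all tested genes, and the translocon genes SSR2 and SSR4 were lower, against 3.55% of all tested genes. These counts of 1 and 2 lie close to those shares of 38 genes. The differences of these genes also moved with single libraries. Leaving out each library gave log2 differences of 0.36 to 1.19 for SDF2L1, -0.45 to -0.29 for SSR2 and -0.48 to -0.32 for SSR4. The 95% interval of the difference lay below 1 on the log2(scaled FPKM + 1) scale for 37 of the 38 genes and above -1 for all 38. These bounds are a doubling and a halving of scaled FPKM + 1. For genes of low level they allow larger fold changes of the level itself. SDF2L1 was the gene whose interval reached above 1.

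**Figure D2:**
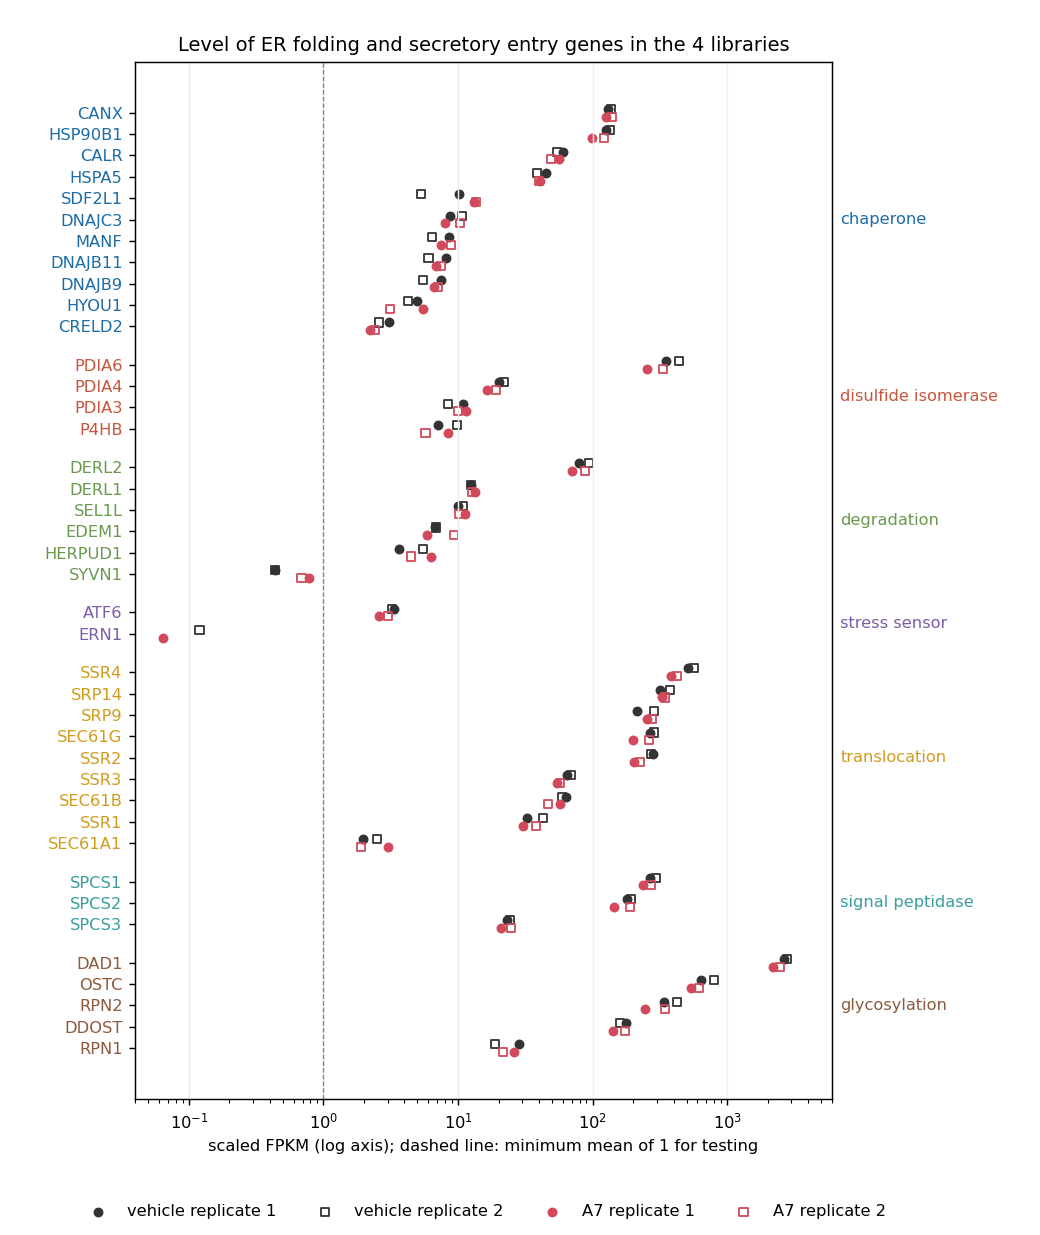
Scaled FPKM of 40 genes in each library on a log axis, by role and ordered by mean, with vehicle in black and A7 in red (circles for replicate 1, squares for replicate 2). DERL3, listed at 0 in all libraries, is not drawn, and values of 0 for ERN1 are left out. The spread between genes, from ERN1, drawn at 0.120 and 0.0645, to DAD1 above 2000, is far wider than that between libraries.

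**Figure D3:**
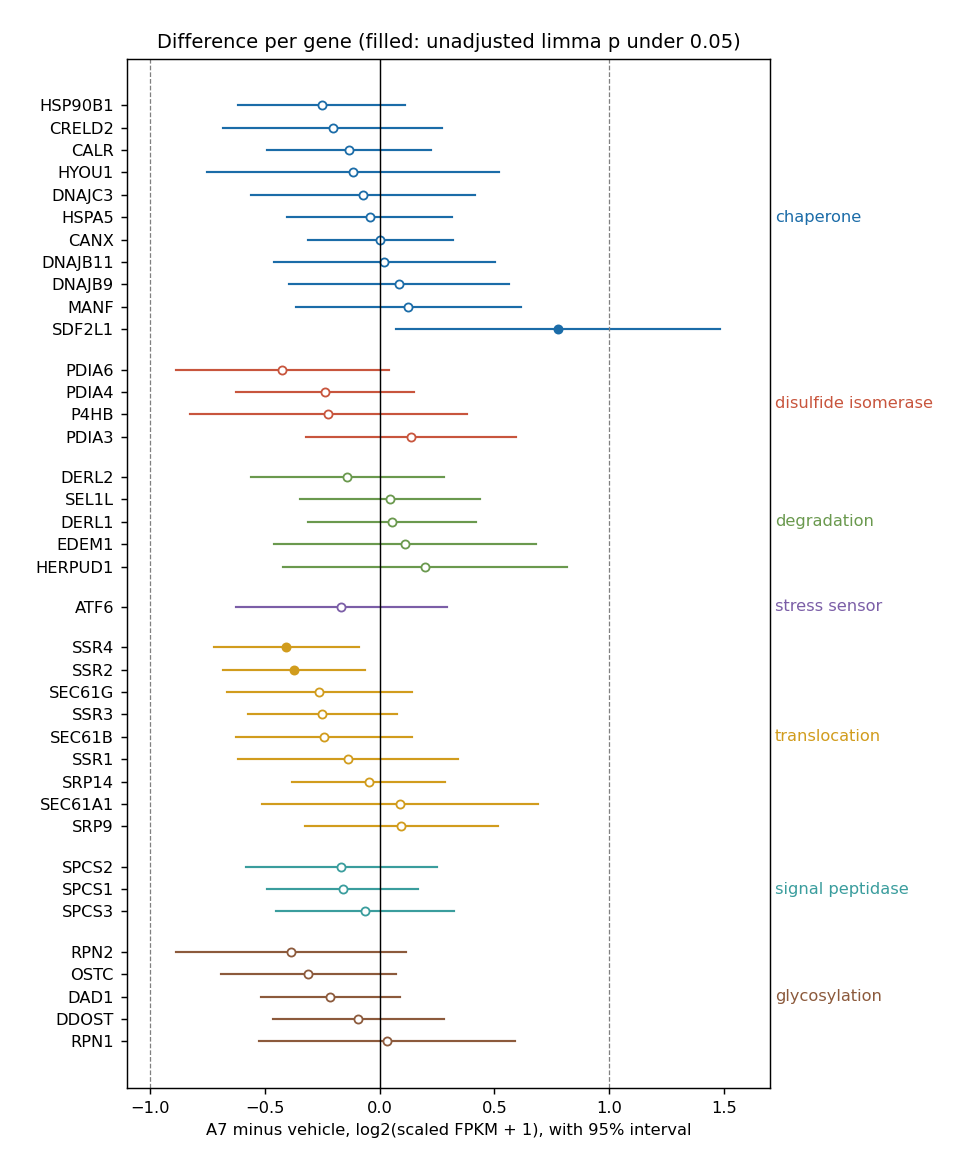
Difference per gene, A7 minus vehicle, on log2(scaled FPKM + 1) with its 95% interval from limma, for the 38 tested genes by role. Filled points mark an unadjusted p under 0.05 (SDF2L1, SSR2 and SSR4), and the dashed lines at -1 and 1 mark a halving and a doubling of scaled FPKM + 1. The intervals of 35 genes include 0.

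Among the chaperones, HSPA5, the central Hsp70 of the ER and the usual readout of the unfolded protein response, stood at 45.1 and 38.3 scaled FPKM in the vehicle pair and 40.9 and 39.7 in the A7 pair. Both A7 values lay between the vehicle values. The log2 difference was -0.044 with a 95% interval of -0.40 to 0.32, and its sign turned with TPM and with quantile normalization (0.17 and 0.051). HSP90B1 (GRP94), the Hsp90 of the ER, stood at 125.6 and 135.6 in the vehicle pair and 99.3 and 120.6 in the A7 pair. Both A7 libraries lay below both vehicle libraries, with a log2 difference of -0.25 (SE 0.15, limma adjusted p = 0.806). It was -0.0287 with TPM, -0.11 after quantile normalization and -0.11 without A7 replicate 1. CANX (calnexin), a membrane lectin that holds glycoproteins during folding, was the most abundant chaperone and stood at 129.2 and 135.9 in the vehicle pair and 126.2 and 139.9 in the A7 pair. The A7 values enclosed the vehicle values, and the interval of the log2 difference ran from -0.31 to 0.32. Its soluble partner CALR (calreticulin) averaged 57.4 ± 4.1 with vehicle and 52.3 ± 5.1 with A7 (SD, n = 2 each), and these groups overlapped.

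SDF2L1, a cofactor of HSPA5 and of its J proteins, had the largest difference of the 38 genes. It stood at 10.2 and 5.27 scaled FPKM in the vehicle pair and 13.1 and 13.7 in the A7 pair. The A7 libraries agreed closely and lay above both vehicle libraries, while the vehicle libraries stood far apart. Mean levels were 7.74 ± 3.49 and 13.4 ± 0.4 (SD, n = 2 each), 1.73-fold higher with A7. The log2 difference was 0.78 (SE 0.29, limma unadjusted p = 0.0362, adjusted p = 0.806), so it did not pass over all genes. It was 0.36 without vehicle replicate 2 and 1.19 without vehicle replicate 1. Only about 20 and 10 fragments in the vehicle libraries, and 47 and 39 after A7, lie behind these values.

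The J proteins, which hand clients to HSPA5 and start its ATP cycle, showed overlapping groups. With vehicle and A7 in turn, DNAJB9 averaged 6.47 ± 1.37 and 6.86 ± 0.32 scaled FPKM, DNAJB11 7.12 ± 1.53 and 7.17 ± 0.43, and DNAJC3 9.73 ± 1.46 and 9.23 ± 1.67 (SD). HYOU1 (GRP170), an exchange factor for HSPA5, averaged 4.59 ± 0.46 and 4.28 ± 1.65, and MANF, a secreted factor that binds HSPA5, averaged 7.47 ± 1.55 and 8.18 ± 0.92, again with overlap. CRELD2, a secretory-pathway protein induced by ER stress, was the least abundant gene of this role and stood at 3.06 and 2.61 in the vehicle pair and 2.22 and 2.43 in the A7 pair. Its A7 values were both below its vehicle values, with a log2 difference of -0.20 (SE 0.19), which came to -0.0409 with TPM and to -0.12 without vehicle replicate 1. Of the 11 chaperones and cofactors, 5 were higher and 6 lower on average with A7, with a median log2 difference of -0.044. This median turned to 0.17 with TPM, to 0.0098 after quantile normalization and to 0.076 without A7 replicate 1. It was -0.15 without vehicle replicate 2.

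Splitting the tested genes by the promoter element gave no separate direction. The 9 genes with an exact element comprised 3 with a higher and 6 with a lower mean with A7, with a median log2 difference of -0.12, and the 25 with a promoter entry but no element comprised 7 and 18, with a median of -0.14. SDF2L1 and PDIA6, the tested genes with the highest and the lowest difference, both hold an element.

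The 4 listed disulfide isomerases differed up to 44.3-fold among themselves in level per length. PDIA6, which also binds the sensor ERN1, was the most abundant and stood at 348.2 and 437.5 scaled FPKM in the vehicle pair and 253.0 and 334.7 in the A7 pair. The highest A7 value was just under the lowest vehicle value, and the replicates of each group differed by about as much as the groups. Group means were 393 ± 63 and 294 ± 58 (SD, n = 2 each), a ratio of 1.34 of vehicle over A7, with a log2 difference of -0.42 (SE 0.19, limma adjusted p = 0.806). It was -0.22 without A7 replicate 1 and -0.25 without vehicle replicate 2. PDIA4, an isomerase with an additional active site, averaged 21.1 ± 1.4 and 17.8 ± 1.9, without overlap of the groups. P4HB, the classical protein disulfide isomerase and a subunit of prolyl hydroxylase, was the least abundant and stood at 7.05 and 9.80 in the vehicle pair and 8.47 and 5.73 in the A7 pair. PDIA3, which works with calnexin and calreticulin on glycoproteins, averaged 9.72 ± 1.75 and 10.7 ± 1.0, and its groups overlapped as those of P4HB did. Of the 4 isomerases 3 had a lower mean with A7, with a median log2 difference of -0.23. It came to -0.0233 with TPM and -0.21 after quantile normalization. Without vehicle replicate 1 it was -0.37, and without vehicle replicate 2 -0.096.

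Of the 5 tested degradation genes 4 had overlapping groups, and 2 more were under the minimum. DERL2, a channel component for export to the cytosol, was the most abundant and stood at 79.5 and 94.2 scaled FPKM in the vehicle pair and 69.9 and 87.9 in the A7 pair. These groups overlapped. DERL1 averaged 12.48 ± 0.03 and 12.99 ± 0.51, with no overlap but a log2 difference of only 0.054, while DERL3, a paralogue, was listed at 0 in every library. SYVN1 (HRD1), the ubiquitin ligase of the pathway, stood at 0.434 and 0.437 in the vehicle pair and 0.781 and 0.688 in the A7 pair. Both A7 values exceeded both vehicle values, 1.69-fold on average. SYVN1 was below the minimum for testing, rests on roughly 23 fragments in all 4 libraries, and gave a limma adjusted p = 0.796 when all genes were fitted without a minimum. Its partner SEL1L averaged 10.4 ± 0.6 and 10.8 ± 0.9. HERPUD1, a membrane protein of the same complex that ER stress induces, averaged 4.56 ± 1.34 and 5.35 ± 1.28, and the mannosidase-like EDEM1, which marks glycoproteins for export, averaged 6.80 ± 0.08 and 7.59 ± 2.42. Means of 4 of the 5 tested genes were higher with A7. The median was 0.054, and it came to 0.26 with TPM and turned to -0.0163 without vehicle replicate 1.

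Of the stress sensors, ATF6, which is cut in the Golgi to release a transcription factor, stood at 3.33 and 3.24 scaled FPKM in the vehicle pair and 2.60 and 3.04 in the A7 pair. Both A7 values were lower, with a log2 difference of -0.17 (SE 0.19), which came to 0.0026 with TPM. ERN1, the kinase and nuclease that splices XBP1 mRNA, was listed at 0 and 0.120 in the vehicle pair and 0.0645 and 0 in the A7 pair, roughly 4 fragments in all, so no difference was detectable at this depth. XBP1 itself stood at 254.5 and 186.6 in the vehicle pair and 180.4 and 166.7 in the A7 pair. All A7 values were under the vehicle values, yet the vehicle replicates differed by more than the group means did, and the log2 difference of -0.33 (SE 0.18) had a limma unadjusted p = 0.115. Gene-level FPKM do not show how much XBP1 mRNA was spliced. The third sensor, EIF2AK3, averaged 1.06 ± 0.41 and 1.47 ± 0.24, with overlap. The transcription factors ATF4 and DDIT3 (CHOP), which act downstream of it, averaged 32.7 ± 7.7 and 35.8 ± 3.5, with overlap, and 46.7 ± 0.9 and 43.1 ± 0.5, without.

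Translocation genes held the 2 lower calls at an unadjusted p. SSR4, a subunit of the translocon-associated protein (TRAP) complex that sits beside the SEC61 channel, was the most abundant of the 9 and stood at 507.7 and 564.7 scaled FPKM in the vehicle pair and 384.5 and 424.5 in the A7 pair. All A7 values lay below all vehicle values, and the gap exceeded the spread within either group. Its averages came to 536 ± 40 and 405 ± 28 (SD, n = 2 each), a ratio of 1.33 of vehicle over A7, with a log2 difference of -0.41 (SE 0.13, limma unadjusted p = 0.0198, adjusted p = 0.806). SSR2, another TRAP subunit, stood at 282.7 and 270.9 in the vehicle pair and 201.7 and 225.7 in the A7 pair, with a log2 difference of -0.37 (SE 0.13, limma unadjusted p = 0.0254, adjusted p = 0.806). Here too the groups did not overlap. SSR3 averaged 66.6 ± 3.7 and 55.8 ± 2.4, without overlap, and SSR1 averaged 37.9 ± 7.3 and 34.3 ± 5.3, with overlap. Summed over the 4 TRAP subunits, scaled FPKM was 887.1 and 947.9 with vehicle and 670.9 and 745.8 with A7. With TPM the log2 differences of SSR4 and SSR2 were -0.18 and -0.15, more than 1.5 times smaller. Both unadjusted calls ended there, as they did after quantile normalization and without the variance trend. Leaving out each library gave log2 differences from -0.48 to -0.32 for SSR4 and from -0.45 to -0.29 for SSR2. Calls are not given for those fits, which leave 1 library in a group.

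The channel subunits of SEC61 did not share a level. SEC61G and SEC61B, the small subunits, averaged 276 ± 13 and 232 ± 44, and 61.1 ± 3.3 and 51.8 ± 7.5, with vehicle and A7, and neither pair of groups overlapped. SEC61A1, which forms the pore, stood at 1.97 and 2.49 in the vehicle pair and 3.04 and 1.91 in the A7 pair, so its groups overlapped. The mean FPKM of SEC61G was 108 times that of SEC61A1. SRP9 and SRP14, which together bind the Alu domain of the signal recognition particle RNA and pause translation, differed 1.33-fold in level. SRP9 averaged 250 ± 51 and 264 ± 16, and SRP14 347 ± 41 and 335 ± 12, both with overlap. Of the 9 translocation genes 7 had a lower mean with A7 and 5 had groups that did not overlap, all lower, beside 18.6% of all tested genes. Lower without overlap were 607 of 2563 tested genes at 10 to 100 FPKM and 348 of 717 at 100 or above. The median log2 difference of the 9 genes, -0.24, came to -0.0209 with TPM, to -0.12 after quantile normalization and to -0.15 without A7 replicate 1.

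Signal peptidase genes overlapped between the groups. SPCS1, a small accessory subunit, stood at 268.4 and 294.5 scaled FPKM in the vehicle pair and 234.8 and 269.1 in the A7 pair. SPCS2, another accessory subunit, averaged 186 ± 10 and 167 ± 33. SPCS3, the least abundant, stood at 23.0 and 24.5 in the vehicle pair and 20.7 and 24.9 in the A7 pair. In each of the 3 the vehicle libraries agreed more closely than the A7 libraries, and A7 replicate 1 was the lowest of the 4.

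Among the oligosaccharyltransferase genes, DAD1, a small membrane subunit, was the most abundant of all 41 genes and stood at 2631 and 2778 scaled FPKM in the vehicle pair and 2188 and 2482 in the A7 pair. The groups did not overlap, with a log2 difference of -0.21 (SE 0.12, limma adjusted p = 0.806), and this difference came to 0.011 with TPM. OSTC, which ties the enzyme to the translocon, averaged 719 ± 107 and 578 ± 59, without overlap, and RPN2 (ribophorin II) averaged 381 ± 59 and 294 ± 70, with overlap. DDOST averaged 168 ± 11 and 158 ± 23. RPN1 (ribophorin I), which brings substrates to the enzyme, was the least abundant of the 5 listed here. It stood at 28.3 and 18.97 in the vehicle pair and 26.2 and 21.4 in the A7 pair. The A7 values lay between the vehicle values. Of the 5 genes 4 had a lower mean with A7, with a median log2 difference of -0.21. This median turned to 0.0106 with TPM and came to -0.0598 after quantile normalization and -0.12 without A7 replicate 1. It was -0.30 without A7 replicate 2.

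Over the 38 tested genes, 25 (65.8%) had a lower mean with A7, beside 50.3% of all tested genes. The groups did not overlap in 12 genes with lower A7 values and in 2 with higher ones, SDF2L1 and DERL1, beside 18.6% and 18.3% of all tested genes. The median log2 difference was -0.12, beside -0.0019 for all tested genes. With TPM, which moved all genes upward (median 0.17), the differences of these 12 genes ran from -0.198 for PDIA6 to 0.0106 for DAD1. Abundance moved with this difference. Of the 14 ER genes at 100 FPKM or above, 12 (85.7%) had a lower mean, and so did 83.5% of all 717 tested genes of that abundance. Their medians were -0.23 and -0.16. With lower A7 values, the groups did not overlap in 7 of the 14 and in 348 of the 717. Of the 11 ER genes with a mean of 1 to 10, 5 were lower (45.5%), beside 41.9% of all such genes. Of the 13 ER genes with a mean of 10 to 100, 8 were lower (61.5%), beside 59.6% of all such genes. The share of ER genes with a lower mean thus lay near that of genes of like abundance in each band. At 100 FPKM or above their median difference was further below 0, and this was not tested.

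**Figure D4:**
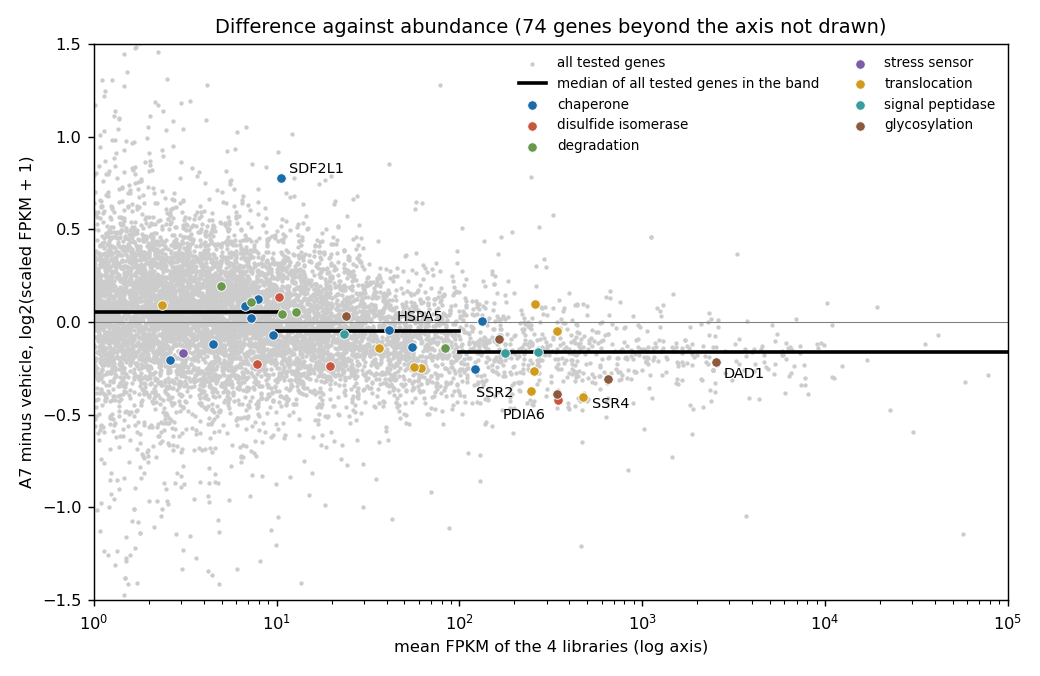
Log2 difference (A7 minus vehicle) against mean FPKM on a log axis, with all tested genes in grey, the 38 ER genes coloured by role and black bars for the median of all tested genes in 3 bands of abundance (74 genes lie beyond the axis). The bars step down from 0.053 to -0.050 and -0.16, and the abundant ER genes lie around and below the last bar.

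Libraries of the same group also stood apart. A7 replicate 1 had the lowest value of the 4 libraries for 21 of the 38 genes, whereas it was lowest for 25.3% of all tested genes. In the band of 100 FPKM and above it was lowest for 12 of the 14 ER genes and for 51% of all genes. Vehicle replicate 2 was the highest library for 11 of these 14 genes and for 70.4% of all genes of that abundance. Around the mean of the 4 libraries, the median ER gene deviated by 0.0495 and 0.10 on the log2 scale with vehicle, and by -0.15 and -0.0052 with A7. Without A7 replicate 1 the median difference of the ER genes was -0.062. Its part in the lower values was not tested further.

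**Figure D5:**
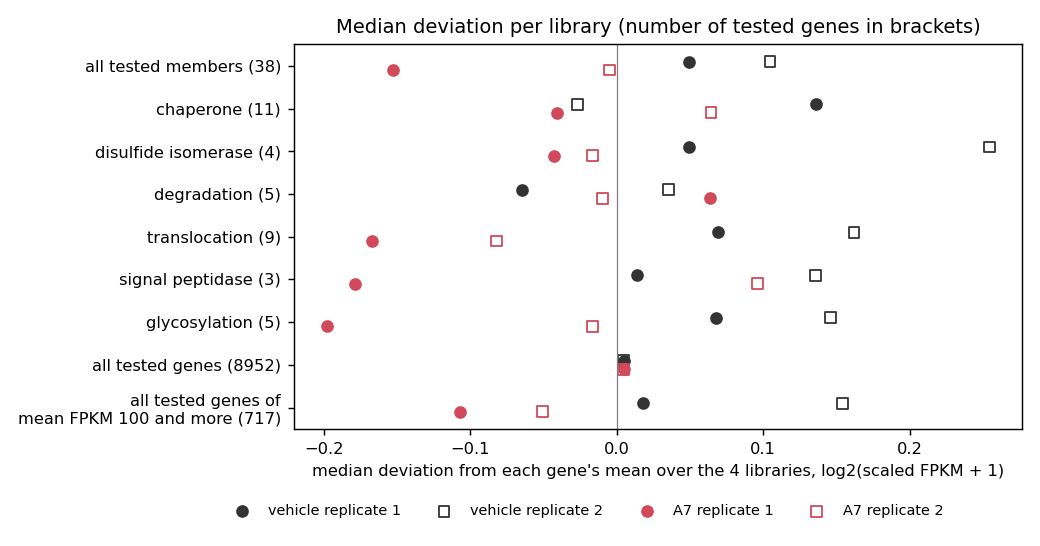
Median deviation of each library from the mean of the 4 libraries on log2(scaled FPKM + 1), by role, for all 38 tested ER genes, for all tested genes and for the 717 at 100 FPKM or above (vehicle black, A7 red; circles replicate 1, squares replicate 2). A7 replicate 1 lies at -0.15 for the ER genes and A7 replicate 2 near 0.

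A wider set of 77 genes of the same pathway, fixed by role, also held no change that passed. Of 71 tested genes 30 were higher and 41 lower on average with A7, with a median log2 difference of -0.039, and 0 passed limma at an adjusted p under 0.05 (smallest adjusted p = 0.806). The unadjusted threshold of 0.05 was passed by 1 higher gene and 2 lower genes, beside 2.21% and 3.55% of all tested genes. These counts lie close to those shares of 71 genes. PPIB (cyclophilin B), a proline isomerase of the ER, stood at 985.3 and 1051 scaled FPKM in the vehicle pair and 707.9 and 799.4 in the A7 pair. PDIA5, a further disulfide isomerase, stood at 2.99 and 3.04 in the vehicle pair and 1.63 and 2.07 in the A7 pair. MOGS, the glucosidase that makes the first cut in the attached glycan, stood at 2.05 and 2.90 in the vehicle pair and 3.87 and 4.04 in the A7 pair. In each of the 3 the groups did not overlap.

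The other genes named per role, those with the smallest unadjusted p, also did not pass, and choice by p favours groups without overlap. Over the 71 tested genes, groups did not overlap in 14 with higher and 16 with lower A7 values. Among all tested genes these shares were 18.3% and 18.6%. OS9, a lectin of the degradation complex, averaged 7.44 ± 0.29 and 10.7 ± 2.3 with vehicle and A7, and PRKCSH, the beta subunit of glucosidase II, 0.890 ± 0.185 and 1.52 ± 0.01. The vehicle mean of PRKCSH was under the minimum of 1. It was tested only because of its A7 values, so its higher level with A7 is partly a matter of selection. MBTPS2, the Golgi protease that makes the second cut in ATF6, averaged 2.63 ± 0.08 and 3.99 ± 0.72, and ATF6B, the paralogue of ATF6, 2.16 ± 0.27 and 3.31 ± 0.86. These groups did not overlap and were higher with A7, as were those of the thioredoxin-like TXNDC12 (7.16 ± 0.48 and 9.18 ± 0.17) and of SEC11A, a catalytic subunit of signal peptidase (147.4 ± 1.2 and 154.4 ± 5.2). Lower without overlap were the prolyl isomerase FKBP14 (4.52 ± 1.1 and 3.04 ± 0.10), UFD1L, which works with VCP (57.98 ± 5.05 and 48.7 ± 4.1), SRPRB, a subunit of the receptor for the signal recognition particle (33.2 ± 3.8 and 26.9 ± 0.7), and the signal peptide peptidase HM13 (9.35 ± 1.76 and 6.37 ± 1.64). The sorting factor BCAP31 averaged 1134 ± 70 and 996 ± 166, with overlap. Of the 11 genes of the stress-sensor role 9 were tested, 6 had a higher mean and 3 a lower one, and the median was 0.14.

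Levels of subunits that act together differed widely, and transcript length moved with them. Among the 5 listed oligosaccharyltransferase genes the mean FPKM of DAD1 was 106 times that of RPN1. Further subunits among the other pathway genes lay above and below this range. The 11 tested ER genes with a transcript of at most 1500 bases had a median of the mean FPKM of 255.8, the 13 between 1500 and 3000 bases one of 55.2, and the 14 above 3000 bases one of 11.7. Across the 38 genes Spearman's rho between mean FPKM and transcript length was -0.49, and across 7847 tested genes with a length it was -0.32. The points share the same 4 libraries, and genes are not independent replicates. FPKM already divides by length, so these values describe the tables and the part of length in the levels was not tested. Exons of other genes in the tables overlap those of PDIA6 (ATP6V1C2), SSR4 (IDH3G), RPN2 (MROH8), SYVN1 (MRPL49), SEC61A1 (RUVBL1), DNAJB9 (THAP5), DNAJB11 (TBCCD1), PDIA3 (ELL3, CATSPER2P1), SPCS1 (GLT8D1, NEK4) and DERL3 (SMARCB1) on the opposite strand, and without strand marking their shared reads cannot be told apart. MIR3652 overlaps HSP90B1 on the same strand.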

How the data were processed

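Each of the 4 LCC9 samples (2 vehicle, 2 A7) gave 1 RNA library. The authors deposited 1 table per library with gene symbols and FPKM, per the file headers. The submitters' processing notes name build GRCh37 and the tools CASAVA 1.8.2, TopHat and Cufflinks 2.2.1, with no order. How reads with several matches were counted is not given in the sources used here. Of 23619 lines per table, 14 carried a number as symbol and were left out, which left 23605 symbols.

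FPKM values were scaled per library by the median, over genes, of the ratio to the geometric mean. Tests used limma 3.58.1 (R 4.3.3) for the 8952 genes whose mean FPKM was at least 1, on log2(scaled FPKM + 1), two-sided, with a mean-variance trend and Benjamini-Hochberg adjustment over all of them (threshold 0.05, 2 residual and 3.89 prior degrees of freedom). Fold changes of low genes are understated on this scale. An exact permutation test of 2 against 2 cannot give a p below 0.333 and was not used. The test was tested on simulated data. The labels give both groups replicate numbers 1 and 2, and the fit has no block for them. Genes of the list are named in full, and of 77 other pathway genes up to 2 per role with the smallest p. EIF2AK3, ATF4 and DDIT3 were added outside this rule after their values were seen. Of the 41 genes, values in every library are given for those with an unadjusted p under 0.05, those without overlap and at least 1.3-fold apart, the highest and lowest of each role, and HSPA5, HSP90B1, ATF6 and ERN1, and beside them for XBP1 and for the other pathway genes with an unadjusted p under 0.05. The genes, lists and rules were chosen with earlier results of these data known.

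Fragment numbers are rough. The relative depth came from the steps of low values and the absolute depth from GENCODE 29 transcript lengths. Lengths are of the longest APPRIS principal transcript. Overlapping exons were read from GENCODE 29, and blastn 2.17.0 found no transcript of another gene with at least 95% identity over at least 50% of a transcript of the 41 genes. Alternatives were 3 other scalings, another pseudocount, no minimum, no variance trend, a replicate block and leaving out each library. Planned C-terminal protein sequences are not shown here.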

Additional observations from a re-analysis of the deposited data

How the results depend on the processing

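No ER gene passed at an adjusted p under 0.05 under any of the 11 alternatives. With TPM the median over all tested genes became 0.17 and that of the ER genes 0.085 (-0.090 relative to that shift), 12 had a lower mean (21.7% of all tested genes), 0 were lower at an unadjusted p (1.07%), and 8 were higher (40.7%) and 1 lower (5.36%) without overlap. After quantile normalization the median was -0.022, 0 were lower at an unadjusted p (2.87% of all tested genes), and 5 were higher (18.6%) and 7 lower (16.2%) without overlap. Without a minimum 0 were higher (3.53%) and without the variance trend 0 were lower (2.73%) at an unadjusted p. Leaving out each library in turn gave medians of the ER genes from -0.18 to -0.062, and with 1 library in a group the spread is taken from the other group. ER genes without overlap were not counted there, since a lone library overlaps less often (32.7% to 37.3% of all tested genes were lower without overlap), nor under the pseudocount, trend and block settings, which leave the order of the libraries as it is. With the replicate number as a block, 1 was higher and 7 were lower at an unadjusted p, beside 3.22% and 6.41% of all tested genes. The labels do not say whether equal numbers mark a shared batch. The replicate differences of the groups had a correlation of 0.091 across genes, and the cause of the higher count was not tested.

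Signs turned for many genes, and the cause was not tested for single genes. Some of them were not close to 0 in the main fit, such as P4HB (-0.22), DAD1 (-0.21) and HERPUD1 (0.20). TPM shifted the tested genes upward as a whole (median 0.17). With TPM the log2 differences were 0.17 for HSPA5, 0.0628 for HYOU1, 0.13 for DNAJC3, 0.0877 for CALR, 0.0813 for DERL2, 0.0026 for ATF6, 0.0803 for SSR1, 0.18 for SRP14, 0.0631 for SPCS1, 0.0566 for SPCS2, 0.15 for SPCS3, 0.13 for DDOST, 0.0106 for DAD1 and 0.0283 for BCAP31. After quantile normalization they were 0.0507 for HSPA5, 0.0791 for SRP14, 0.0032 for SPCS2 and 0.0726 for DDOST, and with unscaled FPKM -0.0012 for CANX. Leaving out each library gave -0.15 to 0.0676 for HSPA5, -0.0651 to 0.0793 for CANX, -0.0532 to 0.45 for HERPUD1, -0.0292 to 0.12 for SEL1L, -0.15 to 0.33 for SEC61A1, -0.12 to 0.31 for SRP9, -0.0982 to 0.27 for DNAJB9, -0.17 to 0.21 for DNAJB11, -0.23 to 0.0973 for DNAJC3, -0.0578 to 0.31 for MANF, -0.0258 to 0.30 for PDIA3, -0.33 to 0.0605 for SSR1, -0.17 to 0.0776 for SRP14, -0.24 to 0.30 for RPN1, -0.30 to 0.0243 for DERL2, -0.36 to 0.0372 for SPCS2, -0.18 to 0.0665 for SPCS3, -0.24 to 0.0575 for DDOST, -0.44 to 0.21 for HYOU1, -0.47 to 0.0270 for P4HB and -0.18 to 0.40 for EDEM1.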
